A study of Mus musculus with 8 samples.

Results

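The interferon response genes examined here were 34 mouse genes, comprising 4 interferon receptor chains, 7 transcription factors, 5 genes for sensing viral RNA and DNA, and 18 antiviral effectors. Open chromatin was assigned to them by position. Every ATAC-seq peak that overlapped a gene's annotated body extended by 10 kb on each side was taken. Merging the 4 peak lists of DN3 thymocytes gave 180321 open regions in the genome, of which 257 lay in the windows of the 34 genes. The windows joined to 31 stretches of 1.31 Mb in all, 247 regions lay in 1 window and 10 lay in 2 neighbouring windows.

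ATAC-seq marks open chromatin by letting a transposase insert sequencing adapters where DNA is accessible. DN3 thymocytes are T-cell precursors without CD4 and CD8 on their surface, at the stage at which the rearranged T-cell receptor beta chain is tested. All cells came from C57BL/6 mice. The mutant libraries (mutant 1 and mutant 2) came from DN3 thymocytes homozygous for mutations in GATA sites 1 and 2 of the Notch-Myc enhancer, labelled NMe, a distal element through which Notch activates Myc. The wild-type libraries (wild type 1 and wild type 2) came from DN3 thymocytes in which this enhancer was intact. The labels give neither age nor sex, and do not say whether the libraries of a genotype came from separate animals or from pools, so differences between them measure the spread of these libraries, which may be technical. The series also holds 4 Notch-driven T-cell leukaemia samples, which were not analysed here.

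Type I interferons are secreted when a cell detects viral nucleic acid. They bind the receptor of Ifnar1 and Ifnar2, and Jak kinases then phosphorylate Stat2, which joins Irf9 in a complex that binds the interferon-stimulated response element (ISRE) of target promoters. Interferon gamma, made by lymphocytes, binds Ifngr1 and Ifngr2 and acts at gamma-activated sites (GAS). The targets include the sensors and the transcription factors of the same pathway, and effectors that block viral entry, translation, replication or budding. In the thymus, interferon signalling is known from the medulla and from thymocytes late in their development.

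Each of the 4 libraries had its own peak list, with widths and strengths but no read counts. The depth of each library is therefore unknown, and the lack of a peak does not show that chromatin was closed. The mutant lists held 121022 and 119023 peaks over 72.3 and 69.3 Mb, against 169255 and 156372 peaks over 72.1 and 70.8 Mb in the wild-type lists. Mutant peaks were fewer and wider, with median widths of 444 and 421 bp, against 284 and 302 bp in the wild-type lists. The lists were also built with different limits. The shortest peak measured 73 and 87 bp in the mutant lists, against 64 and 65 bp in the wild-type lists. Peaks of the mutant lists lay at least 293 and 349 bp apart, against 257 and 261 bp in the wild-type lists. Differences in peak width or number between genotypes therefore cannot be told apart from these differences between the lists. Start sites of 12 of 12 DN3 thymocyte markers, among them Ptcra, Rag1 and Bcl11b, had a peak in every list. Of 7 myeloid markers 2 had one in each mutant list and 4 in each wild-type list, and of 7 plasmacytoid dendritic cell markers, a cell type known for high interferon production, 5 had one in each mutant list and 6 in each wild-type list. The counts were 4 and 4 in the mutant lists and 4 and 5 in the wild-type lists for 5 B-cell markers, 3 and 3 in the mutant lists and 4 and 3 in the wild-type lists for 6 thymic stroma markers, and in every list 1 of 4 erythroid and 3 of 4 NK-cell markers. For comparison, 67.5% and 67.9% of protein-coding genes had a peak at the start in the mutant lists and 71.0% and 70.2% in the wild-type lists. The start sites of Csf1r, Mpo and Siglech had a peak in both wild-type lists and in neither mutant list. Of the regions at all protein-coding starts in both wild-type lists, 4.55% were called in neither mutant list. The start sites of Elane, S100a8, Cebpe, Gata1, Hba-a1, Hbb-bt, Ncr1, Klk1, Psmb11 and Krt5 had no peak in any list. The part of other cell types in the values below was not tested.

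The promoters were examined first for the 2 elements named above, because these elements mark the targets of the pathway. RefSeq promoter sequence (GRCm38.p6) was at hand for 28 of the 34 genes, in 33 promoters, and the 250 bases upstream of each start site were searched. The ISRE was searched on both strands as GAAA, any 2 bases and GAAA again, and the GAS as TTC, any 3 bases and GAA, which reads the same on either strand. The ISRE letters were found in 9 of the 33 promoters (27.3%), against 2.98% of all 32851 mouse promoters of the same length. By gene these were 9 of 28 (32.1%), against 3.48% of 17492 protein-coding genes with promoter sequence. The GAS letters were found in 8 of the 33 promoters (24.2%), against 7.02% of all promoters, and by gene in 8 of 28 (28.6%), against 7.65%. The following sequences show the ISRE-bearing promoters of 5 genes and 1 promoter without a match. The 5 genes include those whose start peaks had the lowest and the highest fold over local background. The sequences run 5′ to 3′ along the gene, end just before the start site, and carry the ISRE letters in capitals.
Isg15 (chr4:156200819-156201068, minus strand): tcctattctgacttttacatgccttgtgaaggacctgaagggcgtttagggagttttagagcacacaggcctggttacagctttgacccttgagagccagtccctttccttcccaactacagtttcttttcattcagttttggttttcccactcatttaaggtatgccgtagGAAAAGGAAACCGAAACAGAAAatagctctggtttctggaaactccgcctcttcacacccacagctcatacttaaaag
Bst2 (chr8:71537473-71537722, minus strand): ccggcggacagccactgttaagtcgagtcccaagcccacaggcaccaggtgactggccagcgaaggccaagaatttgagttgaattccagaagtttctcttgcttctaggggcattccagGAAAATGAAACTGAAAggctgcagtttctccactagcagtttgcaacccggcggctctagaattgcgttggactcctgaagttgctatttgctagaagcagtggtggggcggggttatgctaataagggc
Ifit1 (chr19:34640639-34640888, plus strand): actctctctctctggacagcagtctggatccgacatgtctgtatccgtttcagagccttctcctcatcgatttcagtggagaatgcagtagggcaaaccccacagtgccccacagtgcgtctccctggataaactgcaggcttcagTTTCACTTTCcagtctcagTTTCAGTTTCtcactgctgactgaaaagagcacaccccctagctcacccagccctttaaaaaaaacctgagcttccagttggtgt
Rsad2 (chr12:26456453-26456702, minus strand): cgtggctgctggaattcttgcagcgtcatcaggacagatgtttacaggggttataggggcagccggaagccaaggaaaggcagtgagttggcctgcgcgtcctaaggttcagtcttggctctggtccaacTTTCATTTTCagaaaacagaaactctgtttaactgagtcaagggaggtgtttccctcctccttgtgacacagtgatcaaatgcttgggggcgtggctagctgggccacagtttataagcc
Stat2 (chr10:128270248-128270497, plus strand): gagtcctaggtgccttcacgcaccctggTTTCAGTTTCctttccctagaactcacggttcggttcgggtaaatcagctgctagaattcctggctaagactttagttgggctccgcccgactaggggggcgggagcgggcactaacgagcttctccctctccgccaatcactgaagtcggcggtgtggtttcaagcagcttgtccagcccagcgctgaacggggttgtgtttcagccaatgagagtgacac
Ifngr1 (chr10:19591699-19591948, plus strand): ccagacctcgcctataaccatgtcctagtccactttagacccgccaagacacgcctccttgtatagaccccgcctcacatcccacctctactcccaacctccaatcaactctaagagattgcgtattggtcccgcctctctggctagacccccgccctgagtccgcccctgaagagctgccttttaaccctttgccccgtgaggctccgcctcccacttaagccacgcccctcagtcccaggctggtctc

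Isg15, which encodes a ubiquitin-like modifier, carried 3 overlapping ISRE matches from 78 to 57 bases upstream of its start, each sharing 4 bases with the next. Bst2, which encodes the tetherin that holds budding virus at the cell surface, carried a pair of matches that share 4 bases, and a GAS match that shares 3 bases with the outer one. Ifit1, whose product binds foreign RNA, had 2 separate matches 104 and 85 bases upstream on the opposite strand. Rsad2, which encodes the antiviral enzyme viperin, and Stat2 had 1 match each, 120 and 222 bases upstream. The other ISRE-bearing promoters were those of Oas1a, Oas3, Ifit3 and Irf2. GAS letters stood upstream of Irf1, Irf2, Ifnar2, Eif2ak2, Isg20, Ifit2, Oas1a and Bst2.

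All 15 ISRE matches of the interferon response genes lay whole inside a peak of all 4 lists. All mouse promoters together held 1041 ISRE matches at 972 distinct positions, since promoters can overlap, and 307 of these positions (31.6%) lay so. The 15 matches lay in 9 promoters, and some of them share bases, so they are not separate observations. All lay within 250 bases upstream of a start called in all 4 lists, so their count is not independent of the start peaks. The 31.6% also covers promoters without a start peak. The share among promoters with one was not computed, so the comparison does not separate the matches from the start peaks. Among protein-coding genes with an ISRE match upstream, 371 of 608 (61.0%) had a peak at the start in all 4 lists, against 66.5% of all 17492 protein-coding genes with promoter sequence.

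Every interferon response gene was open at its start in both genotypes. All 34 genes had a peak within 1 kb of the start site in all 4 lists, where 66.8% of 21887 protein-coding genes did. With only peaks of fold 4 or more counted, 19 of the 34 genes did, against 10740 of the 21887 protein-coding genes. For the 28 genes with promoter sequence the start was the RefSeq start site. For Oas2, Mx1, Mx2, Usp18, Dhx58 and Zbp1 it was either annotated end of the gene, since no strand was at hand. Of the 28 genes, 4 have more than 1 listed start site, and a peak at any of these counted. Taken so, a peak lay directly over the start in 34 and 34 genes in the mutant lists and in 33 and 33 in the wild-type lists, where Ifit3 was the exception, with its nearest peak 61 and 63 bp away. At the first listed start site alone, Isg20 also had no peak directly over it in mutant 2 and in both wild-type lists. The start peaks had a median width of 1426 and 1406.5 bp in the mutant lists and 1095.5 and 1117 bp in the wild-type lists. Over all protein-coding genes with a called start the medians were 1250 and 1207 bp in the mutant lists and 1067 and 1081 bp in the wild-type lists. By fold the order within each list was the opposite one. The median fold of the 34 start peaks was 4.22 and 4.33 in the mutant lists and 5.02 and 4.71 in the wild-type lists. Over protein-coding genes it was 5.30 and 5.48 in the mutant lists and 6.11 and 5.93 in the wild-type lists.

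**Figure D1:**
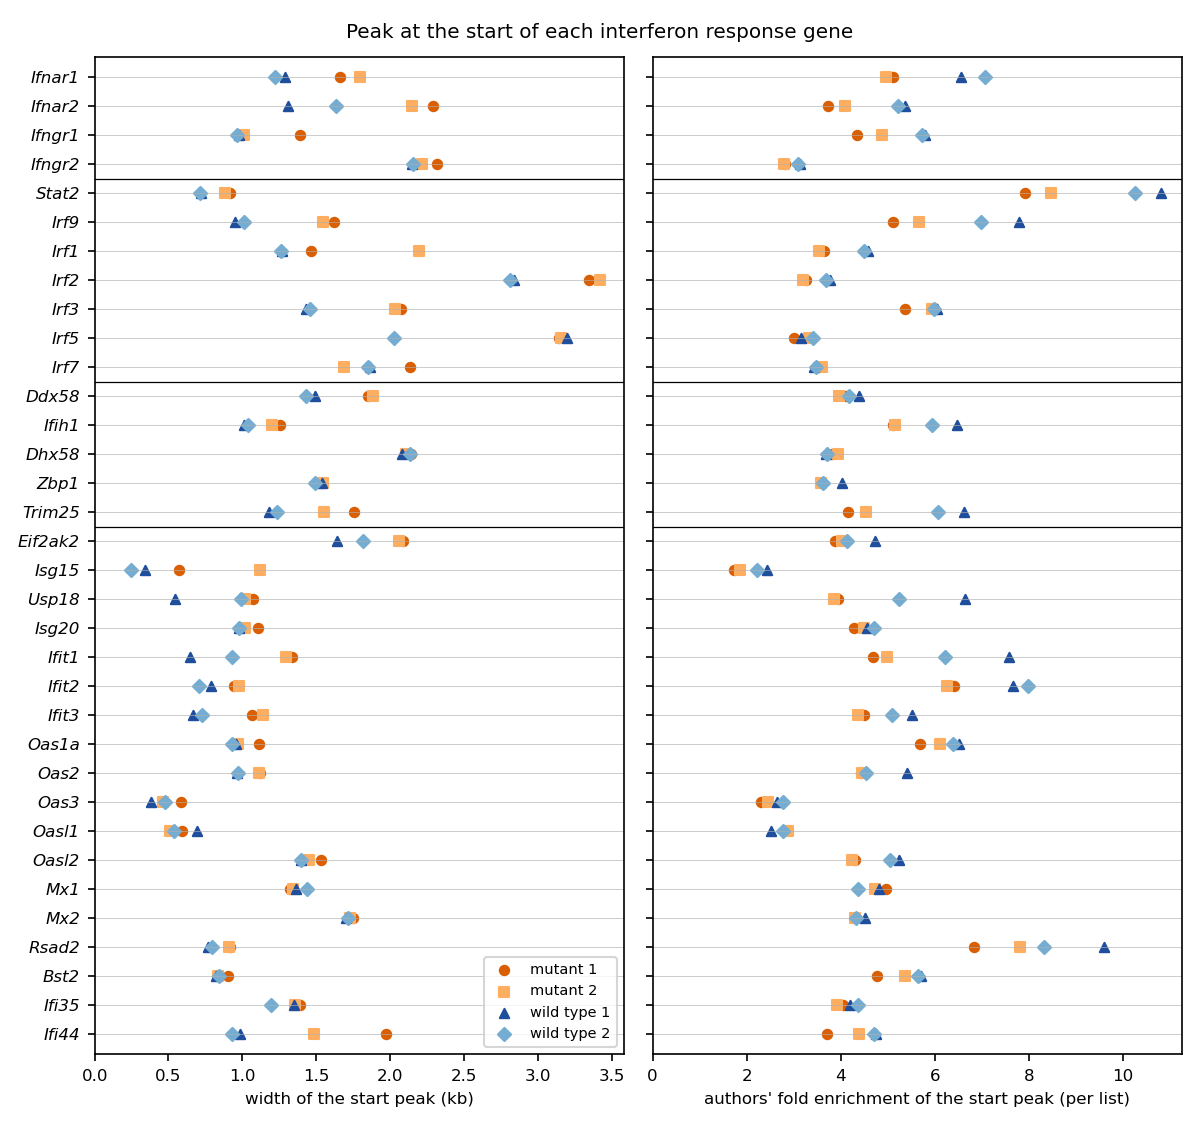
Width (left, kb) and deposited fold enrichment (right, ratio of pileup to local background within each list) of the start peak of each of the 34 genes, grouped from the top as receptors, transcription factors, sensors and effectors; each point is 1 library. Circles and squares (mutant 1 and mutant 2) lie to the right of triangles and diamonds (wild type 1 and wild type 2) in the width panel for 26 genes, and Stat2 has the highest fold in every list.

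Start peaks were wider in both mutant lists than in both wild-type lists for 26 of the 34 genes (76.5%). Of the 14628 protein-coding genes with a start called in all 4 lists, 51.8% showed the same order. A gap of any size counted, and some were small, such as 1731 bp in mutant 2 against 1718 bp in wild type 2 at Mx2. The start peak was narrower in both mutant lists for 1 gene, Mx1 (2.94%), against 12.9% of protein-coding genes, and the widths overlapped for 7 (Irf5, Irf7, Dhx58, Zbp1, Oas3, Oasl1 and Bst2). When all 4 lists were joined over a common gap of 349 bp with a common shortest length of 87 bp, 20 of the 34 genes were wider in both mutant lists and 2 were narrower, against 47.5% and 14.8% of protein-coding genes. The lists contribute 2 libraries to each genotype and the genes are not independent replicates, so these counts describe the 4 lists.

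Ifnar2 and Ifngr2 had the wider start peaks among the receptor genes. Ifnar1, the first chain of the type I receptor, had a start peak of 1658 and 1796 bp in the mutant lists and 1286 and 1223 bp in the wild-type lists. Ifnar2, its partner chain, had 2289 and 2147 bp in the mutant lists and 1311 and 1633 bp in the wild-type lists. The groups did not overlap for either chain. Ifngr1, the ligand-binding chain of the interferon gamma receptor, whose promoter without an ISRE match is printed above, had 1388 and 1008 bp in the mutant lists and 978 and 962 bp in the wild-type lists, so mutant 1 stood apart and mutant 2 lay close to wild type. Ifngr2, its signalling partner, differed by less, with 2315 and 2216 bp in the mutant lists and 2151 and 2156 bp in the wild-type lists.

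Among the transcription factors, Stat2 had the strongest start peak of all 34 genes in every list. Fold enrichment is the authors' ratio of signal to local background within a library, so its size is not compared between lists. Regions found in several lists are ordered below by the lowest of their folds, as a description. Stat2 had a fold of 7.92 and 8.47 in the mutant lists and 10.8 and 10.2 in the wild-type lists, over a narrow peak of 915 and 884 bp in the mutant lists and 723 and 713 bp in the wild-type lists. Its start region also lies within 1 kb of the start of Apof, so the peak cannot be assigned to Stat2 alone. Irf9, the DNA-binding partner of Stat2, had 1621 and 1547 bp in the mutant lists and 953 and 1010 bp in the wild-type lists, a clear separation.

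Irf1 and Irf2, an activator and its competitor at the same element, were both wider in mutant. Irf1 had 1462 and 2197 bp in the mutant lists and 1266 and 1265 bp in the wild-type lists, with mutant 2 far above the other 3. Irf2 had the widest start peak of the wild-type 2 list and of both mutant lists, at 3347 and 3425 bp in the mutant lists and 2839 and 2815 bp in the wild-type lists. Irf3, which is activated by phosphorylation and switches on interferon genes, had 2073 and 2032 bp in the mutant lists and 1430 and 1461 bp in the wild-type lists. Its start region is shared with Bcl2l12. Irf7, the inducible counterpart of Irf3, had 2136 and 1688 bp in the mutant lists and 1867 and 1851 bp in the wild-type lists, so its groups overlapped. Irf5, a mediator of Toll-like receptor signalling, had 3142 and 3156 bp in the mutant lists and 3201 and 2024 bp in the wild-type lists, where wild type 2 alone was narrow.

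The sensors followed the same order for 3 of 5 genes. Ddx58, which encodes the RNA sensor RIG-I, had 1849 and 1887 bp in the mutant lists and 1493 and 1434 bp in the wild-type lists. Ifih1, which encodes MDA5, a sensor of long double-stranded RNA, had 1255 and 1202 bp in the mutant lists and 1012 and 1041 bp in the wild-type lists. Trim25, a ubiquitin ligase that activates RIG-I, had 1757 and 1555 bp in the mutant lists and 1179 and 1234 bp in the wild-type lists. The groups did not overlap for these 3 genes. Dhx58, which encodes the regulatory helicase LGP2, ranged from 2081 to 2144 bp over the 4 lists, and Zbp1, a sensor of Z-form nucleic acid, ranged from 1493 to 1548 bp, with no separation of the genotypes.

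By fold, the effectors held both the weakest start peak and some of the strongest. Isg15 had the lowest fold of the 34 start peaks in every list, at 1.72 and 1.86 in the mutant lists and 2.44 and 2.21 in the wild-type lists. Its peak measured 571 and 1120 bp in the mutant lists and 342 and 244 bp in the wild-type lists. The Isg15 promoter holds more ISRE matches than any other of the 28. Rsad2 stood at the other end, behind only Stat2 by fold in every list, with 6.83 and 7.82 in the mutant lists and 9.60 and 8.32 in the wild-type lists. Its width was 918 and 909 bp in the mutant lists and 769 and 795 bp in the wild-type lists. The order by the deposited −log10 q was a different one. Isg15 had 22.0 and 33.6 in the mutant lists and 43.4 and 27.4 in the wild-type lists. Ifi44 lay below it in every list, with 18.1 and 18.6 in the mutant lists and 15.8 and 13.8 in the wild-type lists.

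The Ifit genes form a cluster on chromosome 19, and their products bind viral RNA and block its translation. Their start peaks were narrower than the median of the 34 genes in every list. Ifit1 had 1337 and 1293 bp in the mutant lists and 649 and 928 bp in the wild-type lists. Ifit2 had 941 and 978 bp in the mutant lists and 786 and 704 bp in the wild-type lists. Ifit3 had 1067 and 1139 bp in the mutant lists and 664 and 727 bp in the wild-type lists. The Ifit1 start region also lies within 1 kb of the start of Ifit1bl2. For all 3 genes the genotypes were apart, and the 2 ISRE matches of the Ifit1 promoter lay inside the peaks of both genotypes.

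The Oas genes encode synthetases of the oligoadenylates that activate RNase L. Like the Ifit genes they are a family of near copies, and how reads that fit several copies were placed is not given in the sources used here. Oas1a had 1114 and 972 bp in the mutant lists and 956 and 927 bp in the wild-type lists. Oas2 had 1122 and 1114 bp in the mutant lists and 967 and 972 bp in the wild-type lists. Oas3 had a narrow start peak of 588 and 466 bp in the mutant lists and 384 and 476 bp in the wild-type lists. Oasl1, a relative without synthetase activity, had 589 and 510 bp in the mutant lists and 695 and 540 bp in the wild-type lists. The groups overlapped for both of these genes. Oasl2 differed by less, with 1536 and 1454 bp in the mutant lists and 1396 and 1398 bp in the wild-type lists.

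Mx1 and Mx2, which encode antiviral GTPases and are annotated in GRCm38.p6 as transcribed pseudogenes, were nevertheless open. Mx1 had 1325 and 1345 bp in the mutant lists and 1363 and 1438 bp in the wild-type lists, the only one of the 34 genes whose start peak was narrower in both mutant lists. Mx2 had 1748 and 1731 bp in the mutant lists and 1701 and 1718 bp in the wild-type lists, wider in mutant by a small gap. Ifi44, an interferon-induced gene, had one of the clearest separations, with 1975 and 1483 bp in the mutant lists and 981 and 928 bp in the wild-type lists. Usp18, the protease that removes ISG15 from its targets, had 1075 and 1017 bp in the mutant lists and 541 and 992 bp in the wild-type lists, where wild type 1 alone was narrow.

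The remaining effectors were Eif2ak2, Isg20, Ifi35 and Bst2. Eif2ak2, the kinase PKR that halts translation on sensing double-stranded RNA, had 2086 and 2062 bp in the mutant lists and 1638 and 1819 bp in the wild-type lists, at a start region shared with the predicted gene Gm26637. Isg20, an RNA exonuclease, had 1106 and 1015 bp in the mutant lists and 979 and 976 bp in the wild-type lists. Ifi35, an interferon-induced protein, had 1390 and 1359 bp in the mutant lists and 1350 and 1193 bp in the wild-type lists. Bst2, whose printed promoter has 2 overlapping ISRE matches, ranged from 823 to 900 bp, and its groups overlapped.

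Promoter composition was described by the number of CpG dinucleotides. The 9 genes with an ISRE match had a median of 4 CpG dinucleotides in the 250 upstream bases and a median start peak of 849 bp, averaged over the 4 lists. The 19 genes with promoter sequence but no match had 11 CpG dinucleotides and 1446 bp. The median CpG number was 15 for 4 receptors, 16 for 7 transcription factors, 12 for the 3 sensors and 4 for the 14 effectors that have promoter sequence, with median start peaks of 1668, 1749, 1431 and 946 bp in the same order. Across the 28 genes, CpG number and mean start peak width had a Pearson's r of 0.598 and a Spearman's rho of 0.539. These are given as a description over genes, which share the same 4 libraries.

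Start peaks of the mutant lists reached further on both sides of the start. At 500 bp upstream, 53.6% and 42.9% of the 28 genes were under a peak in the mutant lists and 21.4% and 35.7% in the wild-type lists. At 500 bp downstream the shares were 82.1% and 75% in the mutant lists and 67.9% and 64.3% in the wild-type lists. Over 17492 protein-coding genes the upstream point was covered in 31.2% and 29.1% in the mutant lists and 26.2% and 26.3% in the wild-type lists. The downstream point was covered in 47.0% and 46.1% of these genes in the mutant lists and 43.2% and 43.3% in the wild-type lists, so the genotypes stood in the same order there. By 1 kb downstream the genotypes overlapped for the 28 genes, with 35.7% and 39.3% in the mutant lists and 35.7% and 32.1% in the wild-type lists. Over protein-coding genes they did not overlap at that point, with 18.2% and 17.4% in the mutant lists and 15.9% and 16.1% in the wild-type lists. For genes with several listed start sites the first listed one was used.

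**Figure D2:**
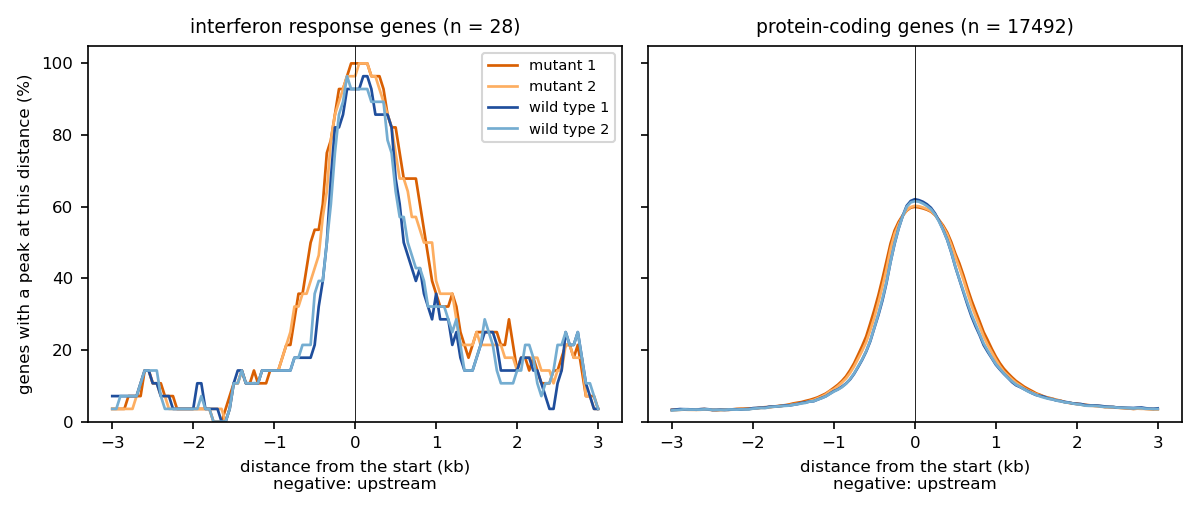
Percent of genes under a peak at each distance (kb) from the start site, for the 28 interferon response genes with a RefSeq start site (left) and 17492 protein-coding genes (right); each line is 1 library. At the start 100% and 96.4% of the 28 genes are covered in the mutant lists and 92.9% in each wild-type list, and the mutant lines are the wider ones at 500 bp on either side.

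Taken whole, the windows held 185 and 186 peaks in the mutant lists and 246 and 234 in the wild-type lists, a ratio of mutant to wild type of 0.773. The whole lists had a ratio of 0.737, and the windows' share of each list was close between genotypes, at 0.153% and 0.156% in the mutant lists and 0.145% and 0.150% in the wild-type lists. Covered length ran the other way from peak number. Peaks covered 137 and 132 kb of the windows in the mutant lists and 125 and 125 kb in the wild-type lists, with means of 134.5 ± 3.95 kb in mutant and 125.0 ± 0.455 kb in wild type (SD, n = 2 each; ratio 1.08), while covered length over the whole lists had a ratio of 0.991. The groups did not overlap for any of these values, and the exact two-sided permutation test over libraries gave p = 0.333 for each (adjusted p = 0.333 over the 5 values tested), which is the smallest p that 2 against 2 libraries allow. The direction of both depended on which peaks were counted: with an equal number of peaks per list the ratio of peaks was 1.04, and with only peaks of fold 4 or more the ratio of covered length was 0.952.

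Of the 34 windows, 17 (50%) had more covered bases in both mutant lists than in both wild-type lists, where 29.1% of 18586 protein-coding windows with a peak and 32.4% of the 14628 with a start called in all 4 lists did. A window had fewer covered bases in both mutant lists for 3 genes (8.82%), against 32.1% and 28.7% of those protein-coding windows, and 14 overlapped. The median ratio of mutant to wild type was 1.07 over the 34 windows, from 0.766 to 1.56, and 26 (76.5%) were above 1. Over protein-coding windows with a peak the median was 0.992 and 47.9% were above 1. Over those with a start called in all 4 lists, as all 34 genes have, the median was 1.01 and 52.8% were above 1.

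The Ifit cluster lay at the top of this range. The Ifit1 window had 2241 and 2117 covered bp in the mutant lists and 1219 and 1577 bp in the wild-type lists, a ratio of 1.56 that 1.54% of protein-coding windows reached. The Ifit3 window had 3879 and 3674 bp in the mutant lists and 2583 and 2611 bp in the wild-type lists (ratio 1.45), and the Ifit2 window had 4793 and 3930 bp in the mutant lists and 3470 and 3203 bp in the wild-type lists (ratio 1.31). All mutant values lay above all wild-type values, but the windows of Ifit2 and Ifit3 share regions and are not independent. Irf9 (ratio 1.28), Eif2ak2 (1.24), Ifngr1 (1.23) and Ifih1 (1.23) followed.

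The windows with less cover in mutant were those of Stat2, Mx2 and Rsad2. The Stat2 window had 1692 and 1711 covered bp in the mutant lists and 2092 and 2353 bp in the wild-type lists (ratio 0.766), although its start peak was wider in both mutant lists. The Mx2 window had 2104 and 2070 bp in the mutant lists and 2722 and 2575 bp in the wild-type lists (ratio 0.788). The Rsad2 window had 2089 and 1719 bp in the mutant lists and 2154 and 2091 bp in the wild-type lists (ratio 0.897), a narrow gap set by mutant 1. Regions seen only in wild type numbered 2 in the Stat2 window, 3 in the Mx2 window and 1, of 189 bp, in the Rsad2 window. Such regions were found at 19 of the 34 genes. The same count over all protein-coding windows is not given here. By region, 14.8% of those in both wild-type lists were called in neither mutant list, against 15% over all regions.

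**Figure D3:**
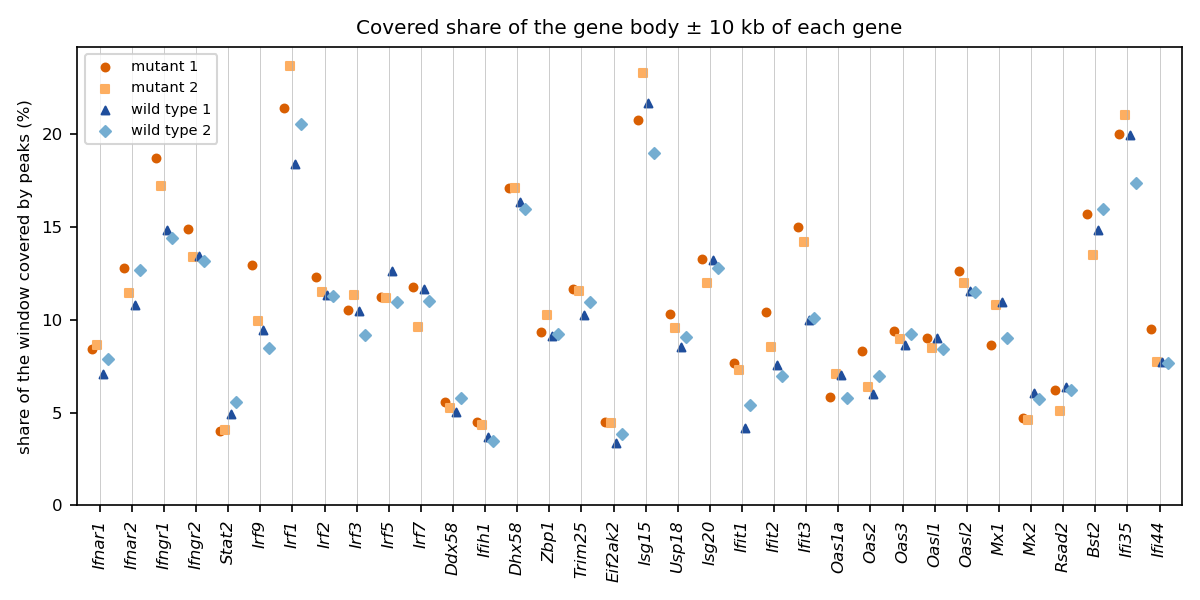
Percent of the gene body and its 10 kb flanks covered by peaks, for each of the 34 genes; each point is 1 library. Mutant points lie above wild-type points for 17 genes, among them Ifit1, Ifit2 and Ifit3, and below them for Stat2, Mx2 and Rsad2.

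Most open regions of the interferon response genes were common to both genotypes. Of the 257 regions, 167 (65.0%) were called in all 4 lists, where 56.7% of all regions were. Regions called in both mutant lists and neither wild-type list numbered 1 of 172 (0.581%), against 1.75% over all regions. Regions called in both wild-type lists and neither mutant list numbered 30 of 203 (14.8%), against 15% over all regions. Of the remaining 59 regions, 7 were in mutant 1 alone, 4 in mutant 2 alone, 21 in wild type 1 alone and 11 in wild type 2 alone. In that order these were 2.72%, 1.56%, 8.17% and 4.28% of the 257 regions, against 1.59%, 1.40%, 11.2% and 5.86% over all regions. In bases, the windows overlapped by a Jaccard index of 0.819 between the mutant lists, 0.822 between the wild-type lists and 0.717 to 0.742 between genotypes. Over the whole lists the index was 0.786 between the mutant lists, 0.764 between the wild-type lists and 0.666 to 0.681 between genotypes.

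**Figure D4:**
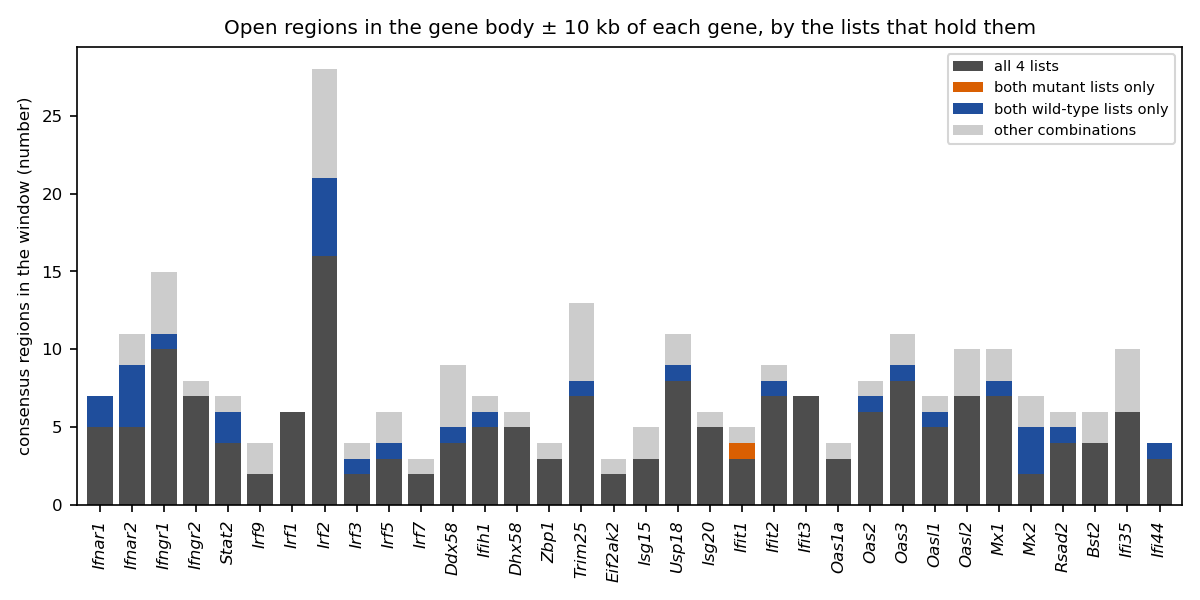
Number of open regions in the gene body and 10 kb flanks of each of the 34 genes, split by the lists that hold them. Regions in all 4 lists make up 167 of 257, and the single region of both mutant lists only is at Ifit1. Regions of both wild-type lists only occur at 19 genes, with 5 at Irf2 and 4 at Ifnar2. They are 14.8% of the regions in both wild-type lists, against 15% over all regions.

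The strongest regions in all 4 lists were mostly not at the starts of the interferon response genes. The highest lowest fold belonged to a 575 bp region beyond the Ifih1 gene (chr2:62654434-62655008), with 9.96 and 9.11 in the mutant lists and 10.8 and 11.3 in the wild-type lists. A 512 bp region inside the Ifih1 body (chr2:62630396-62630907) had 7.66 and 8.45 in the mutant lists and 12.6 and 13.1 in the wild-type lists, the highest wild-type fold in any window. The flank of Oasl1 held a region of 8.30 and 8.95 in the mutant lists and 11.1 and 10.8 in the wild-type lists (chr5:114941918-114942736), at the start of 2210016L21Rik. The Ifit2 body held one of 8.11 and 8.61 in the mutant lists and 8.90 and 7.74 in the wild-type lists (chr19:34569881-34570660).

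The others among the 10 strongest were the Stat2 and Rsad2 start regions described above, a region within 1 kb of an Usp18 end (chr6:121271915-121272974), a region in the Ifnar1 flank (chr16:91512244-91512952), and regions at the starts of the neighbours Mvb12a in the Bst2 flank and Rpl27 in the Ifi35 flank. In all, 26 of the 257 regions lay within 1 kb of the start of another protein-coding gene. For these regions the window rule cannot tell which gene the open chromatin belongs to.

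The regions found in both wild-type lists alone had small widths and low folds. They measured 77 to 440 bp, with a deposited fold of 1.55 to 3.64. The median of the lower wild-type fold was 2.19, against 3.99 for regions in all 4 lists. Of the 39 regions within 1 kb of a start in both wild-type lists, 0 were called in neither mutant list, against 4.55% around all protein-coding starts. Of the 73 body regions in both wild-type lists, 20 (27.4%) were called in neither mutant list, against 16.5% of such regions in the bodies of all protein-coding genes. In the flanks the share was 10 of 91 (11.0%), against 16.6%. Of the 40 regions within 1 kb of a start, 39 (97.5%) were in all 4 lists, against 85.6% around all protein-coding starts.

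The share of wild-type regions that were called in neither mutant list was lower at greater width, in the windows and in the genome. Width here is that of the merged region, so a region also held by a mutant list can take its width from the mutant peak. The Isg15 start region, for example, counted as 1120 bp, with wild-type peaks of 342 and 244 bp. The order by width is therefore set in part by the merging. Among regions of the interferon response genes under 200 bp, 20 of the 30 in both wild-type lists (66.7%) were called in neither mutant list, against 51.3% over all regions of this width. From 200 bp to below 500 bp the share was 10 of 51 (19.6%), against 15.4%. At 500 bp or more it was 0 of 122, against 1.67%, and 122 of the 123 regions of this width were in all 4 lists. Of the 30 regions, 3 were narrower than the shortest peak of mutant 2, and 11 lay within 1 kb of the nearest mutant peak.

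**Figure D5:**
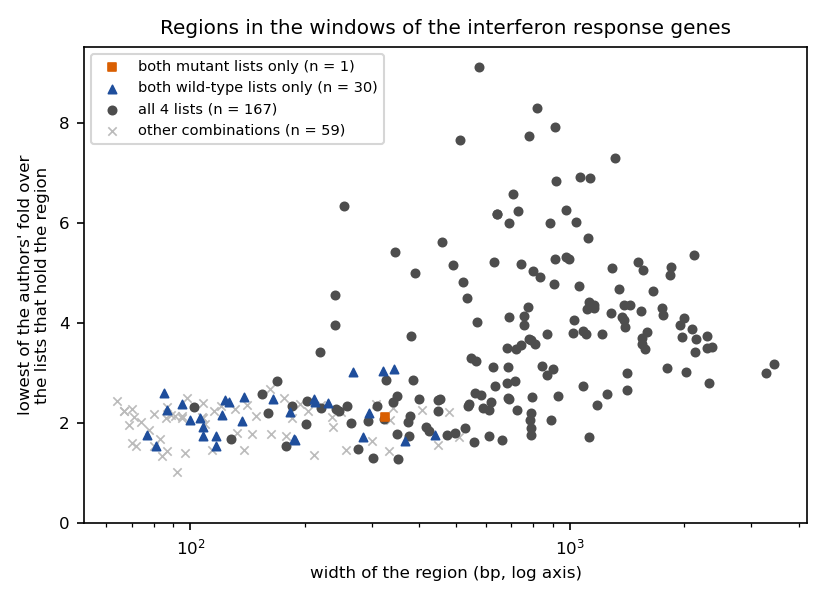
Width (bp, log axis) of each of the 257 merged regions against the lowest deposited fold over the lists that hold it. Colours and shapes give the combination of lists. The 30 regions of both wild-type lists only lie between 77 and 440 bp, and all regions of 500 bp or more but 1 are in all 4 lists.

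By class, regions of both wild-type lists called in neither mutant list numbered 7 of 34 (20.6%) at receptor genes and 9 of 46 (19.6%) at transcription factors. They numbered 3 of 29 (10.3%) at sensors and 11 of 94 (11.7%) at effectors, against 15% over all regions. Differences between the classes were not tested. Irf2 had 5 such regions in its long window of 28 regions, Ifnar2 had 4, Mx2 had 3, and Stat2 and Ifnar1 had 2 each. The strongest were a 344 bp region in the Irf2 body (chr8:46769549-46769892), with a fold of 3.14 and 3.08 in the wild-type lists, and a 322 bp region in the Ifih1 body (chr2:62606314-62606635), with 3.19 and 3.05. The nearest mutant peak to the Ifih1 region lay 21244 bp away. A 268 bp region in the Mx1 flank (chr16:97441434-97441701) had 3.64 and 3.03 in the wild-type lists.

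The other 9 of the 12 strongest were weaker. They were a region of 138 bp in the Oasl1 body and one of 123 bp in the Ifit2 body, regions of 85, 95 and 230 bp at Mx2, regions of 165 and 212 bp in the Ifnar2 body, 1 region of 126 bp in the Ifnar1 flank and 1 of 213 bp in the Irf2 body. Their lower wild-type fold ran from 2.39 to 2.59. The 85 bp region at Mx2 was the farthest of the 30 from a mutant peak, at 21601 bp.

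The region called only in mutant lay just beyond the end of Ifit1 (chr19:34650408-34650733). It was 326 bp wide, with a fold of 2.13 in mutant 1 and 2.71 in mutant 2. The nearest wild-type peak lay 530 bp away. The gene at its side is the one with the largest ratio of covered length, to which this region contributed.

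These counts moved with the peaks that were used. With an equal number of peaks in each list, 11 regions were called in both mutant lists alone and 4 in both wild-type lists alone, so the order of the 2 counts was the opposite one. Without mutant 1, mutant 2, wild type 1 or wild type 2, in that order, 5 of 186, 8 of 184, 4 of 171 and 2 of 172 mutant regions were called in the mutant alone, against 3.83%, 4.11%, 3.66% and 2.56% over the genome. In the wild type alone the counts were 32 of 205, 36 of 206, 42 of 219 and 51 of 230 wild-type regions (15.6% to 22.2%), against 19.3% to 25.4% over the genome. With a common joining gap and shortest length the counts were 1 for mutant (0.606%, against 2.20% over the genome) and 16 for wild type (8.79%, against 12.1%). With an equal number of peaks, 2.55% of the wild-type regions in the windows and 4.92% of those in the genome were called in neither mutant list. The order of the counts therefore cannot be separated from the length and construction of the lists.

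At the edge of the window rule, the outermost region inside was 9932 bp from the body of Oasl2 and was in a mixed set of lists. The nearest region left out was 10047 bp from the body of Bst2 and was in all 4 lists.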

How the data were processed

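ATAC-seq peak lists of 4 DN3 thymocyte libraries were used, 2 mutant and 2 wild type. The submitters' processing notes name MACS2 2.1.1, SAMtools 1.7, Bowtie2 2.3.3.1 and cutadapt 1.16, and the build mm10 (GRCm38). Settings, order of steps, read filters and the handling of transposase offsets are not given in the sources used. The authors deposited 1 broad peak list per library, so peaks were not called on pooled samples. The deposited fold is a ratio of pileup to local background, the deposited −log10 q and −log10 p values belong to each peak in its own library, and the deposited score was −log10 q times 10, truncated, in the values. The lists hold no counts, so no count model, interval or detection limit was computed.

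Peaks on other contigs than chromosomes 1 to 19, X and Y (0.112% to 0.131% of each list) were left out. Overlapping peaks of the 4 lists were merged to regions, and a list had a region if a peak overlapped it by 1 bp or more. Gene bodies and promoters came from RefSeq tables of GRCm38.p6, and all 34 symbols matched. Start peaks were the peak over the start, otherwise the nearest within 1 kb. Single values were compared with an exact two-sided permutation test of the genotype labels over the 4 libraries. Libraries of the same replicate number were not paired in this test (see the correlations in the closing section). The code was tested on simulated lists. Alternatives were fold 4 or more, −log10 q 5 or more, equal list lengths, a common joining gap and shortest length, flanks of 0 and 50 kb, 50% cover of a region, start distances of 500 bp and 2 kb, and each library left out. Every interferon response gene was given. Regions were named if they were specific to a genotype (the 12 with the highest lower fold where there were more) or among the 10 with the highest lowest fold. The genes, the lists, the pathway genes and the markers were chosen with earlier results of these data known. Exon positions were not used. Python 3.11.15, numpy 2.4.6, pandas 2.3.3, scipy 1.17.1 and matplotlib 3.10.9 were used.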

Additional observations from a re-analysis of the deposited data

How the results depend on the processing

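Peak lists without read counts, 2 libraries per genotype and lists of unequal length limit every comparison, and a missing peak is not a closed region. The ratios of mutant to wild type kept their direction in every alternative run except 2. With an equal number of peaks per list the ratio of peaks in the windows was 1.04. With peaks of fold 4 or more the ratio of covered length was 0.952. Other ratios kept their direction but came close to equality. That of covered length was 1.015 with flanks of 50 kb, and that of the share of peaks was 1.007 without flanks. For both the genotypes overlapped, with an exact permutation p of 0.667. With 1 library left out, the ratio ran from 0.754 to 0.793 for peaks, 1.03 to 1.06 for their share of the list, 1.05 to 1.10 for covered length and 1.08 to 1.09 for its share. Replicate numbers had correlations of −0.0065 (presence) and −0.063 (covered bases) over 180321 regions, and the main test did not pair the libraries. Whether libraries of the same number shared a preparation is not given in the sources used, and these values cannot show it. With the replicate block the ratios were 0.773, 1.05, 1.08 and 1.09, each with an exact sign-flip p of 0.5, the smallest that 2 pairs allow.

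Peaks of fold 4 or more left 19 of the 34 genes with a start called in all 4 lists, against 10740 of 21887 protein-coding genes. Of the 19 genes, 17 were wider in both mutant lists, against 57.1% of protein-coding genes called so. The same limit left 61 regions in all 4 lists (61%, against 54.0% over the genome) and 10 only in wild type (12.2%, against 19.7%). It left 2 only in mutant (3.08%, against 1.55%), where the order against the genome is the opposite of 0.581% against 1.75%. Fewer peaks are counted under this limit. With −log10 q of 5 or more 9 regions were only in wild type (6.43%, against 10.3%). An equal number of peaks gave 11 regions only in mutant (6.47%, against 6.99%), 4 only in wild type (2.55%, against 4.92%), and 26 windows with more cover in both mutant lists, against 47.1% of protein-coding windows. The common joining gap and shortest length gave 16 regions only in wild type (8.79%, against 12.1%). Without flanks 86 regions were in all 4 lists and 0 only in mutant. With flanks of 50 kb 446 were in all 4 lists, 3 only in mutant and 76 only in wild type. Counts at these flanks differ with the length of the windows, and their shares are not given here. With 50% of a region required to be covered, 10 were only in mutant (6.49%, against 7.46%). Leaving out 1 library gave 167 to 173 regions in all remaining lists, 2 to 8 only in mutant and 32 to 51 only in wild type, the last without wild type 2, with shares over the genome of 2.56% to 4.11% and 19.3% to 25.4%. It also gave 34 called starts each time, 27 to 30 wider starts (56.5% to 67.3% of protein-coding genes) and 19 to 24 windows with more cover (34.1% to 43.4% of protein-coding windows). The other 87 values moved by less than 1.5 times or less than the spread between libraries.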

Other observations

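The starts of 60 other genes of the interferon pathway, from the kinases Jak1 and Tyk2 to guanylate-binding proteins and Ifitm genes, were nearly as uniformly open. A peak lay within 1 kb of the start in 58 and 59 of them in the mutant lists and in 59 and 58 in the wild-type lists, and in 58 in all 4 lists, against 66.8% of protein-coding genes. The start of Ifnb1, the gene of interferon beta, and that of Ifng, the gene of interferon gamma, had a peak in all 4 lists. The exceptions were Ifna4, one of the interferon alpha genes, called in mutant 2 and wild type 1, and Ifi205, a gene of the Ifi200 family, called in no list. No pathway gene outside the 34 had its start called in 1 genotype alone.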
